A study of Mus musculus with 8 samples.

Results

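Fn14, the receptor encoded by *Tnfrsf12a*, was examined in mouse quadriceps muscle together with 6 genes of the same signalling system. These were *Tnfsf12*, which encodes its ligand TWEAK, the TNF receptor genes *Tnfrsf1a* and *Tnfrsf1b*, and the adaptor genes *Traf2*, *Traf3* and *Traf6*. The 7 genes were taken by name from a table of 47643 genes, and all 7 were among the 14229 genes whose mean level reached 0.5 TPM and which were therefore compared between genotypes. They were chosen by their names with results of that same comparison known, namely the difference in TPM between genotypes, so the genotype differences of the 7 genes are given as a description, with no test. A level in TPM is an estimate of the transcripts of a gene, corrected for transcript length and brought to the same total in every library, so it can be set side by side between genes.

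RNA was taken from quadriceps of 4 mice with the label *Nup210*-/- and 4 with the label *Nup210*+/+, all labelled C57BL/6 (C57BL/6J in the study's methods), with 1 library per mouse. Nup210 is a membrane protein of the nuclear pore complex. The *Nup210*-/- line is constitutive: Cre expressed from the Hprt locus removed a loxP-flanked exon 2, so the deletion is not limited to muscle fibers, and no treatment or injury is named for these 8 mice. Their ages and sexes are not given in the sources used here. Whole muscle was homogenized, so fewer cells of a type and less RNA per cell cannot be told apart, and a gene of this system may come from fibers, fibroblasts, vessels or immune cells.

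TNF superfamily ligands bind receptors of the matching family at the cell surface, and the tails of many of these receptors recruit TRAF proteins. TRAF proteins are adaptors, several of them ubiquitin ligases, that pass the signal to the kinases that free NF-kB transcription factors from their inhibitors. Fn14 is a small receptor with a TRAF-binding tail and no death domain. In skeletal muscle it is known to be low at rest and to be induced by denervation, injury and loading, and TWEAK acting through Fn14 and TRAF6 is a known driver of muscle wasting in mice.

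The promoters of 3 receptor genes are printed because these genes lay at both ends of the receptor family in the comparison of genotypes: *Tnfrsf12a* had the lowest difference, and *Tnfrsf19* and *Eda2r* had the highest. Each line is the 250 bases before the RefSeq transcription start on GRCm38.p6, read 5′ to 3′ on the strand of the gene, with every GC box (GGGCGG, on either strand) in capitals. The windows are chr17:23677450-23677699 for *Tnfrsf12a*, chr14:61046856-61047105 for *Tnfrsf19* and chrX:97377210-97377459 for *Eda2r*, all on the minus strand. *Tnfrsf19* has 2 starts in the RefSeq table, and the window shown is that of the first.
*Tnfrsf12a*: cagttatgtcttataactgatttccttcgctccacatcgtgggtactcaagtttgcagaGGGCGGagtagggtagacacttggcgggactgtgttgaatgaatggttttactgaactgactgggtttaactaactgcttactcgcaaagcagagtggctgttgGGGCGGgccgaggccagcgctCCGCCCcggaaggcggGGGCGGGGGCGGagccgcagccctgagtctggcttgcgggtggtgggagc
*Tnfrsf19*: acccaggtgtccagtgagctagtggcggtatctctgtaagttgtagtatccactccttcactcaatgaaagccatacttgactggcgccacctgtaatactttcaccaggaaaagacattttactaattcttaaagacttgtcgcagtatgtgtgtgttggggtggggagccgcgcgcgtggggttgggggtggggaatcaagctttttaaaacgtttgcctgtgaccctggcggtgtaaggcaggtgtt
*Eda2r*: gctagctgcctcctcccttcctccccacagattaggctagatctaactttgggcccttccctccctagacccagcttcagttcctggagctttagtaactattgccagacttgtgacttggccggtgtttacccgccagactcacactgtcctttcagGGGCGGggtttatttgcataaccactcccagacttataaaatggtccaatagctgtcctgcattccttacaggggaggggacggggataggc

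The *Tnfrsf12a* window held 5 GC boxes and was 58.8% G and C. The printed *Tnfrsf19* window held 0 GC boxes and that of its other start held 3, and that of *Eda2r* held 1 and was 53.2% G and C. Over 32851 windows of the same length, 32.7% held at least 1 GC box and 8.47% held at least 3. Of the 7 genes, 6 had a window in the table, all but *Tnfsf12*. *Traf3* held 4 GC boxes, *Tnfrsf1b* and *Traf6* held 2 each, and *Tnfrsf1a* and *Traf2* held 0. The *Tnfrsf12a* window also held 1 E-box (CANNTG, found in 66.2% of all windows) and no match to the AP-1 site TGANTCA (6.75%), to TATAAA (12.4%), or to the NF-kB (7.25%), MEF2 (2.92%) and CArG (1.47%) sites. Among the other 5 windows, 1 NF-kB site was found, in *Traf3*. These are matches of letters on either strand, and no match means only that these letters are not in the window.

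The RNA of the targeted gene was not lower under the *Nup210*-/- label. *Nup210* (chromosome 6, ENSMUSG00000030091) was read at 9.54, 10.79, 11.93 and 8.81 TPM in the libraries labelled *Nup210*-/- and at 5.71, 10.11, 9.19 and 6.71 TPM in those labelled *Nup210*+/+ (two-sided exact permutation p = 0.143, of a smallest possible 0.0286). Its log2 difference of 0.44 ± 0.15 (SE, limma adjusted p = 0.231) was against the label, and 0.56 ± 0.13 (limma adjusted p = 0.148) without *Nup210*+/+ replicate 2. A gene total need not show the loss of 1 exon, and directions below are those of the labels. Muscle fiber markers were high in every library, with sums of 74800 to 88000 TPM, and T and B cell markers were near 0, with sums of 0.2 to 3.34 TPM. *Nup210*+/+ replicate 2 stood apart, with 382 TPM of granulocyte precursor markers against 0.31 to 2.12 TPM in the other libraries, so results are also given without it where that bears on a value.

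*Tnfrsf12a* was the gene of the 7 whose level separated the genotypes both as deposited and after the libraries were scaled. The gene (ENSMUSG00000023905) lies on chromosome 17 at 23675445 to 23677468 of GRCm38, minus strand, and overlaps no exon of another gene. Its level was 75.89, 61.00, 74.63 and 69.80 TPM in *Nup210*+/+ replicates 1 to 4 and 40.50, 38.82, 36.37 and 39.42 TPM in *Nup210*-/- replicates 1 to 4. The genotypes did not overlap: every library labelled *Nup210*-/- was below every library labelled *Nup210*+/+, and the gap between the highest *Nup210*-/- and the lowest *Nup210*+/+ library was wider than the range within either genotype. The means were 38.8 ± 1.75 TPM (SD, n = 4) in libraries labelled *Nup210*-/- and 70.3 ± 6.75 TPM (SD, n = 4) in those labelled *Nup210*+/+, that is 44.9% lower. On the log2(scaled TPM + 1) scale, in which each library was first divided by a size factor, the difference of *Nup210*-/- minus *Nup210*+/+ was −0.75 ± 0.09 (SE), the 239th most negative of the 14229 genes. On TPM as deposited, spread among the *Nup210*-/- mice was small, with a coefficient of variation of 4.51% against 9.60% among the *Nup210*+/+ mice. After scaling the *Nup210*-/- libraries were at 42.8, 39.3, 36.2 and 42.1, a wider range, and the *Nup210*+/+ libraries at 73.8, 58.9, 66.4 and 73.1.

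The lowest *Nup210*+/+ value of *Tnfrsf12a*, 61.00 TPM, came from replicate 2, the library that stood apart. Without it the difference was −0.81, so the separation of the labels was as large without that library. Over the remaining omissions of 1 library the difference lay between −0.78 and −0.70, and the genotypes did not overlap in any of the 18 fits made. Markers of other cell types differed between the labels to unlike degrees and in both directions. The 6 fibroblast markers summed to 657 to 775 TPM in *Nup210*-/- libraries and 790 to 1320 TPM in *Nup210*+/+ libraries, with all 6 estimates lower. The 7 leukocyte markers summed to 20.4 to 23.2 and 25.8 to 118 TPM, or 25.8 to 45.7 TPM without *Nup210*+/+ replicate 2, with all 7 estimates lower. The 6 endothelial markers summed to 74.2 to 85.7 and 80.3 to 96.3 TPM, with 4 of 6 estimates lower, and the 7 muscle fiber markers summed to 81200 to 88000 and 74800 to 79900 TPM, with all 7 estimates higher. The 5 satellite cell markers summed to 11.9 to 14.0 and 10.2 to 12.3 TPM, with 3 of 4 tested estimates higher. The part of these cell types in the level of *Tnfrsf12a* was not tested.

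**Figure D1:**
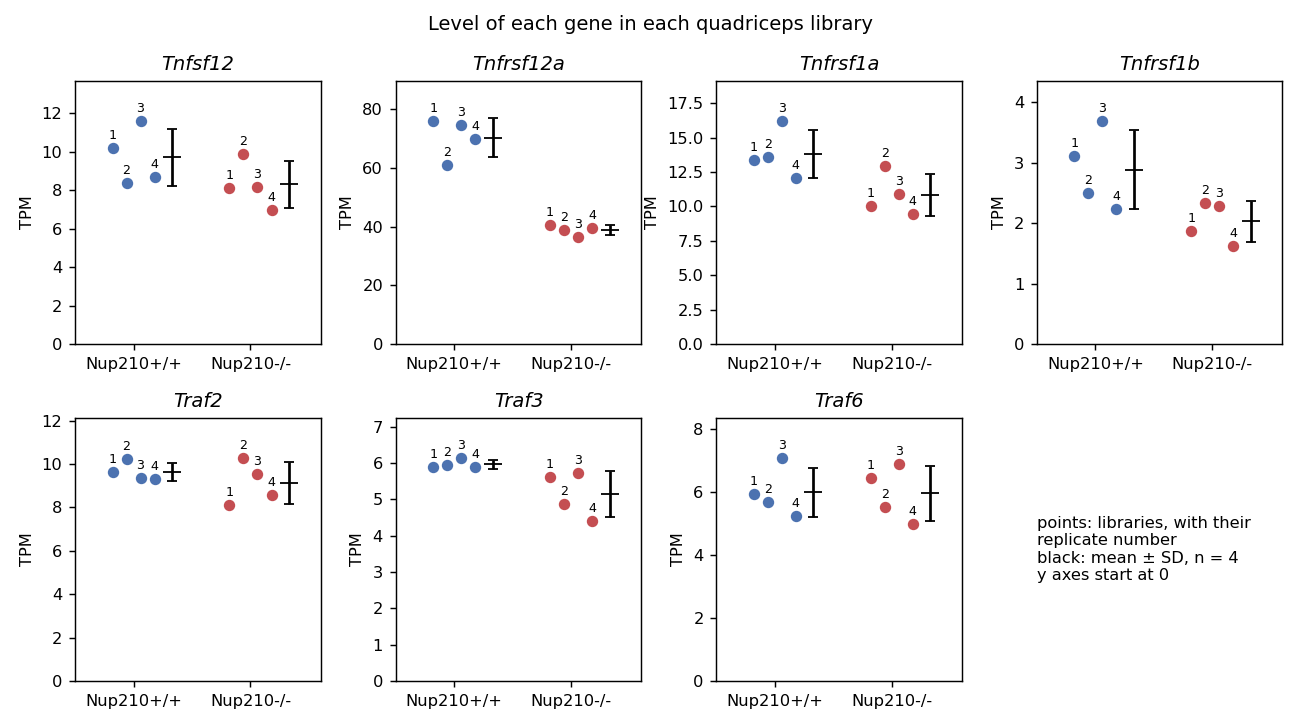
Level in TPM (y axes, each from 0) of the 7 genes in each quadriceps library, blue for the *Nup210*+/+ and red for the *Nup210*-/- label, with replicate numbers at the points and mean ± SD (n = 4) in black. *Tnfrsf12a* lay between 36.37 and 40.50 TPM in the libraries labelled *Nup210*-/- and between 61.00 and 75.89 TPM in those labelled *Nup210*+/+, while the other genes lay much closer together.

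The ligand gene did not separate the genotypes. *Tnfsf12* (ENSMUSG00000097328, chromosome 11, 69686250 to 69695849, minus strand) was at 10.19, 8.39, 11.60 and 8.69 TPM in the *Nup210*+/+ libraries and at 8.13, 9.91, 8.20 and 7.0 TPM in the *Nup210*-/- libraries. The ranges overlapped, with *Nup210*-/- replicate 2 above 2 of the *Nup210*+/+ libraries. The means were 9.72 ± 1.48 and 8.31 ± 1.20 TPM (SD, n = 4 each), and the log2 difference was −0.12 ± 0.11 (SE), from −0.19 to −0.06 when single libraries were left out. Its value is uncertain, because its exons are shared on the same strand with *Tnfsfm13*, a gene model that joins *Tnfsf12* to its neighbor *Tnfsf13*, and the estimate of reads can be split between them. Summed over the 3 models the level was 14.6 ± 2.17 TPM in *Nup210*+/+ libraries and 11.8 ± 0.594 TPM in *Nup210*-/- libraries (SD, n = 4 each), with ranges of 12.0 to 17.2 and 11.3 to 12.6 TPM that again overlapped.

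*Tnfrsf1a* encodes TNFR1, the broadly expressed TNF receptor with a death domain. It lies on chromosome 6 at 125349362 to 125362484, plus strand (ENSMUSG00000030341). The level was 13.39, 13.61, 16.19 and 12.03 TPM in *Nup210*+/+ libraries and 10.04, 12.96, 10.87 and 9.44 TPM in *Nup210*-/- libraries. Only *Nup210*-/- replicate 2 reached into the *Nup210*+/+ range. The means of 13.8 ± 1.74 and 10.8 ± 1.54 TPM (SD, n = 4 each) gave a log2 difference of −0.24 ± 0.09 (SE), which was −0.31 without that replicate, when the genotypes no longer overlapped.

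*Tnfrsf1b* encodes TNFR2, the receptor found mainly on immune and endothelial cells. It lies on chromosome 4 at 145213463 to 145246870, minus strand (ENSMUSG00000028599), and had the lowest level of the 7 genes. Its level was 3.12, 2.50, 3.69 and 2.23 TPM in *Nup210*+/+ libraries and 1.88, 2.34, 2.29 and 1.63 TPM in *Nup210*-/- libraries. The ranges met only through *Nup210*+/+ replicate 4 and *Nup210*-/- replicates 2 and 3. The means were 2.89 ± 0.653 and 2.04 ± 0.340 TPM (SD, n = 4 each), and the log2 difference was −0.28 ± 0.13 (SE), from −0.34 to −0.21 when single libraries were left out. With a pseudocount of 0.1 in place of 1 it was −0.38, since the pseudocount shrinks differences of genes at this level. The 7 macrophage markers summed to 67.1 to 79.6 TPM in *Nup210*-/- libraries and 73.3 to 170 TPM in *Nup210*+/+ libraries, with 6 of 6 tested estimates lower, and their part in the level of *Tnfrsf1b* was not tested.

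The adaptor genes lay close to 0 difference. *Traf2* (chromosome 2, 25517982 to 25546940, minus strand, ENSMUSG00000026942), whose product binds TNFR2 and Fn14 directly and TNFR1 through TRADD, was at 9.63, 10.23, 9.36 and 9.29 TPM in *Nup210*+/+ libraries and 8.12, 10.28, 9.53 and 8.58 TPM in *Nup210*-/- libraries. The ranges overlapped, and the log2 difference was 0.01 ± 0.08 (SE), from −0.07 to 0.05 over the alternatives. *Traf6* (chromosome 2, 101678429 to 101701669, plus strand, ENSMUSG00000027164), a ubiquitin ligase of the interleukin-1 and Toll-like receptor pathways that is needed for muscle atrophy in mice, was at 5.92, 5.68, 7.07 and 5.23 TPM and at 6.44, 5.50, 6.87 and 4.97 TPM. Each genotype spanned almost the range of the other, and the log2 difference was 0.07 ± 0.10 (SE). The sign of both differences turned with TPM as deposited, at −0.07 for *Traf2* and −0.01 for *Traf6*.

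*Traf3* encodes the adaptor that holds the NF-kB-inducing kinase in check (chromosome 12, 111166370 to 111267153, plus strand, ENSMUSG00000021277). On TPM as deposited it had the least spread of the 7 genes among the *Nup210*+/+ mice. Its level there was 5.88, 5.95, 6.14 and 5.88 TPM, a coefficient of variation of 2.06%. The *Nup210*-/- libraries were at 5.62, 4.88, 5.73 and 4.39 TPM, with a coefficient of variation of 12.3%. On TPM as deposited all 4 *Nup210*-/- libraries lay below the *Nup210*+/+ libraries, but after the libraries were scaled the genotypes overlapped. Scaled values were 5.72, 5.74, 5.47 and 6.16 in *Nup210*+/+ libraries, a wider range than before, and 5.94, 4.94, 5.71 and 4.69 in *Nup210*-/- libraries. The log2 difference was −0.10 ± 0.09 (SE) on scaled TPM, from −0.15 to −0.06 when single libraries were left out, and −0.18 on TPM as deposited.

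Of the 7 genes, 5 had a negative estimate, beside 51.3% of all tested genes, and 1, *Tnfrsf12a*, did not overlap between genotypes on scaled TPM, beside 9.38% of all tested genes (4.6% lower and 4.78% higher). With limma at an adjusted p of 0.05, 16 genes or 0.112% of those tested were called, 0.0633% lower and 0.0492% higher, and 1 of the 7 genes was among them. That gene, *Tnfrsf12a*, was called in 8 of the 18 fits, and with 1 library left out only without *Nup210*+/+ replicate 2. Because the genes were picked with this contrast known, nothing is read from these counts.

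The order of the levels was steep at the top and flat in the middle. Over the 8 libraries the mean was 54.6 TPM for *Tnfrsf12a*, 12.3 for *Tnfrsf1a*, 9.38 for *Traf2*, 9.01 for *Tnfsf12*, 5.96 for *Traf6*, 5.56 for *Traf3* and 2.46 for *Tnfrsf1b*. Neighbors in this order were compared within libraries on log2(TPM + 1) with a two-sided exact sign-flip permutation test, adjusted over the 6 pairs. The pairs and their direction came from the means of the same 8 libraries, so the p-values only describe how steady each step was. *Tnfrsf12a* stood above *Tnfrsf1a* by 2.01 ± 0.33 (SD over libraries), in 8 of 8 libraries (exact adjusted p = 0.0117). *Tnfrsf1a* above *Traf2*, *Tnfsf12* above *Traf6* and *Traf3* above *Tnfrsf1b* gave the same exact adjusted p of 0.0117, each in 8 of 8 libraries, where 0.00781 is the smallest unadjusted p possible. *Traf2* and *Tnfsf12* did not differ beyond their spread (0.06 ± 0.18, higher in 5 of 8 libraries, exact adjusted p = 0.406), and neither did *Traf6* and *Traf3* (0.08 ± 0.13, 6 of 8 libraries, exact adjusted p = 0.141). The order was the same in both genotypes, except that the means of *Traf2* and *Tnfsf12* changed places in the *Nup210*+/+ libraries.

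Fn14 held a large share of the receptor transcripts. Among 28 genes of the TNF receptor superfamily, *Tnfrsf12a* had the highest level in every library. The next highest receptor gene reached 12.41 to 16.19 TPM in the *Nup210*+/+ libraries and 12.27 to 12.96 TPM in the *Nup210*-/- libraries. *Tnfrsf12a* made up 44.2 ± 3.44% of the summed TPM of these receptors in *Nup210*+/+ and 31.0 ± 2.01% in *Nup210*-/- libraries (SD, n = 4 each), with ranges of 41.2 to 47.3% and 29.0 to 32.9%. The family sum was 160 ± 15.6 TPM in *Nup210*+/+ libraries and 125 ± 4.55 TPM in *Nup210*-/- libraries. Without *Tnfrsf12a* the sums were 89.0 ± 11.9 and 86.3 ± 5.16 TPM, with ranges of 78.4 to 106 and 80.5 to 92.1 TPM, so that the libraries labelled *Nup210*-/- lay within the range of the others. Among all genes of the table, *Tnfrsf12a* ranked between 1204 and 1530 by TPM in *Nup210*+/+ libraries and between 2079 and 2388 in *Nup210*-/- libraries.

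**Figure D2:**
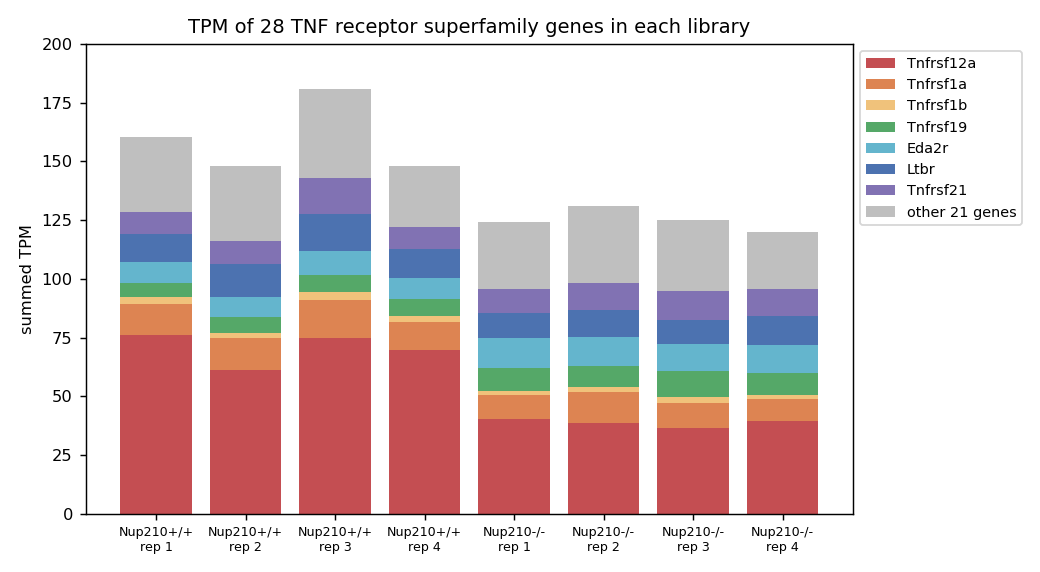
Summed TPM (y axis, from 0) of 28 TNF receptor superfamily genes in each library, stacked by gene, with the *Nup210*+/+ libraries at left. The *Tnfrsf12a* segment spans 36.37 to 75.89 TPM, and the sum of the other 27 genes was 86.3 ± 5.16 TPM in *Nup210*-/- libraries and 89.0 ± 11.9 TPM in *Nup210*+/+ libraries.

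Ratios within a library, which do not depend on its total, gave the same description. The level of *Tnfrsf12a* was 7.29 ± 0.662 times that of *Tnfsf12* in *Nup210*+/+ libraries, between 6.43 and 8.03, and 4.74 ± 0.733 times in *Nup210*-/- libraries, between 3.92 and 5.63 (SD, n = 4 each). Relative to *Tnfrsf1a* it was 5.14 ± 0.691 and 3.64 ± 0.559 times higher, and neither ratio overlapped between genotypes. The ratio of *Tnfrsf1a* to *Tnfrsf1b* was 4.88 ± 0.622 in *Nup210*+/+ and 5.35 ± 0.443 in *Nup210*-/- libraries, with ranges that overlapped. These ratios rest on the values that the choice of genes used, so no test is given.

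The other listed receptor genes were split in direction. Of 27 other genes listed as receptors or their close partners, 16 were tested, 8 with a positive and 8 with a negative estimate and a median of −0.04, beside −0.01 for all tested genes. None was called (limma with Benjamini-Hochberg adjustment over 14229 genes), and at an unadjusted p of 0.05, passed by 14.2% of all tested genes (7.18% lower and 7.0% higher), 2 were higher and 0 lower. These were *Tnfrsf19* (TROY, a receptor known from neural and hair follicle development) and *Eda2r* (a receptor of the ectodysplasin isoform EDA-A2). *Tnfrsf19* was at 9.83, 8.73, 11.26 and 9.28 TPM in *Nup210*-/- libraries and at 5.96, 6.63, 6.95 and 7.16 TPM in *Nup210*+/+ libraries. *Eda2r* was at 12.59, 12.59, 11.56 and 12.27 TPM in *Nup210*-/- libraries and at 8.63, 8.38, 10.20 and 9.26 TPM in *Nup210*+/+ libraries. Neither gene overlapped between genotypes, opposite in direction to *Tnfrsf12a*, but both missed the threshold, with log2 differences of 0.57 ± 0.10 (SE, limma adjusted p = 0.067) and 0.48 ± 0.08 (SE, limma adjusted p = 0.0605). *Tnfrsf19* had an adjusted p of 0.0339 to 0.234 over the alternatives and passed in 1 of them.

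Of the 8 other listed genes with a negative estimate, *Ltbr*, *Tnfrsf13b* and *Tnfrsf10b* are given here. Another of them, *Cd163* (log2 difference −0.415 ± 0.19, SE), was not counted among the 28 genes of the receptor family above. *Ltbr*, the lymphotoxin beta receptor and the list gene with the highest mean, was at 11 ± 0.853 TPM in *Nup210*-/- libraries and 13.7 ± 1.86 TPM in *Nup210*+/+ libraries (log2 difference −0.20 ± 0.09, limma adjusted p = 0.363). *Tnfrsf13b*, which encodes TACI of B cells, had the lowest estimate of the list, −0.56 ± 0.32 (SE, limma adjusted p = 0.444), and its *Nup210*+/+ values of 0.32, 2.85, 0.87 and 0.31 TPM were highest in replicate 2, the library with the granulocyte signal. *Tnfrsf10b*, the TRAIL receptor, did not overlap, at 0.33 to 0.44 TPM in *Nup210*-/- libraries and 0.56 to 0.93 TPM in *Nup210*+/+ libraries, with a limma adjusted p of 0.386.

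**Figure D3:**
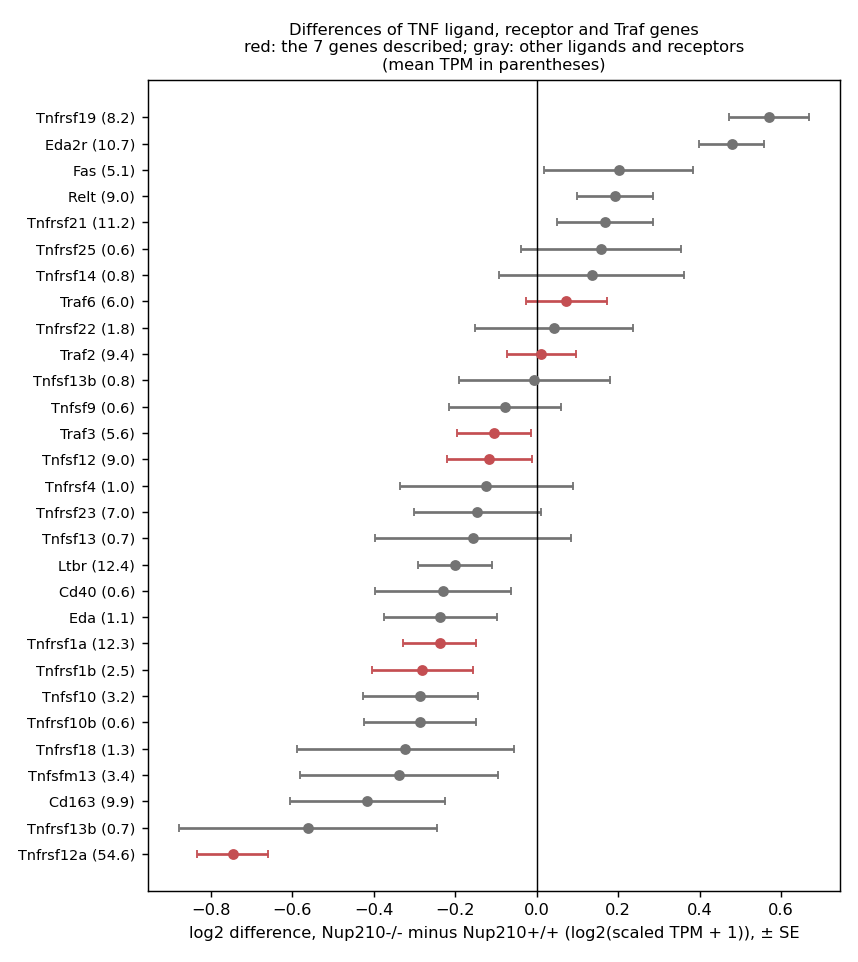
Difference of *Nup210*-/- minus *Nup210*+/+ libraries in log2(scaled TPM + 1) (x axis, point ± SE) for the 7 genes (red) and the tested genes of the other ligand and receptor lists, *Cd163* included (gray), with mean TPM over 8 libraries in parentheses. *Tnfrsf12a* is lowest at −0.75, and *Tnfrsf19* at 0.57 and *Eda2r* at 0.48 are highest.

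Few other ligands were transcribed at a level that could be tested. Of 18 other TNF superfamily ligand genes, 12 stayed below the minimum, with means of at most 0.243 TPM. *Tnf* itself was listed at 0 in 5 of 8 libraries and reached 0.42 TPM in *Nup210*+/+ replicate 2. All 6 tested ligands had a negative estimate, beside 51.3% of all tested genes. Their median was −0.20, but none was called and 0 passed an unadjusted p of 0.05 in limma. *Tnfsfm13* shares exons with *Tnfsf13*, another of the 6, and with *Tnfsf12*, so these are not all separate ligands. The lowest estimate was that of *Tnfsfm13*, at −0.34 ± 0.24 (SE, limma adjusted p = 0.55), which was −0.16 without *Nup210*-/- replicate 2, −0.20 without *Nup210*+/+ replicate 2 and −0.53 without *Nup210*-/- replicate 4, and the highest that of *Tnfsf13b*, the B cell survival factor BAFF, at −0.01 ± 0.19 (SE, limma adjusted p = 0.991). *Tnfsf12*, with a mean of 9.01 TPM, had the highest level of all ligand genes of the family in these muscles.

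The other adaptors and the enzymes around the receptors gave no call. Of 11 other TRAF and TRAF-binding genes, all tested, 0 were called by limma and 1 passed an unadjusted p of 0.05, as did 14.2% of all tested genes. That gene was *Tank*, a TRAF-binding scaffold of the TBK1 kinase, which was at 16.2 ± 0.400 TPM in *Nup210*-/- libraries and 23.4 ± 4.18 TPM in *Nup210*+/+ libraries without overlap (log2 difference −0.40 ± 0.11, limma adjusted p = 0.193). *Trafd1*, a feedback regulator of innate immune signalling, had the highest level (31.7 ± 3.24 and 30.2 ± 2.88 TPM, limma adjusted p = 0.432). *Traf5* had the highest estimate, 0.25 ± 0.29 (SE, limma adjusted p = 0.717), with values from 2.68 to 7.36 TPM that spread widely within both genotypes. *Tifab* had the lowest, −0.75 ± 0.34 (SE, limma adjusted p = 0.361), but its *Nup210*+/+ values were 0.53 to 0.81 TPM in 3 libraries and 3.89 TPM in replicate 2.

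Of 22 genes for receptor-proximal signalling, among them the cIAP and LUBAC ubiquitin ligases and the TAK1 complex, 0 were called by limma, and 2 higher and 2 lower genes passed an unadjusted p of 0.05. Of all tested genes, 7.0% passed it as higher and 7.18% as lower. *Tab2*, the TAK1 partner that binds ubiquitin chains, had the highest estimate, at 67.2 ± 5.43 TPM in *Nup210*-/- libraries and 60.7 ± 1.73 TPM in *Nup210*+/+ libraries (log2 difference 0.23 ± 0.07, limma adjusted p = 0.212). *Cyld*, a deubiquitinase that restrains NF-kB, was at 9.55 ± 0.247 and 8.57 ± 0.490 TPM without overlap (0.23 ± 0.07, limma adjusted p = 0.203). *Map3k5*, the stress kinase ASK1, had the lowest estimate, −0.46 ± 0.18 (SE, limma adjusted p = 0.295). *Ube2v1*, a cofactor of the conjugating enzyme that works with TRAF6, had the highest level and was at 115 ± 9.71 and 115 ± 3.50 TPM (limma adjusted p = 0.527).

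Of 14 NF-kB kinase, subunit and inhibitor genes, 0 were called by limma, with a median of −0.03. At an unadjusted p of 0.05, passed by 14.2% of all tested genes, 2 were higher and 0 lower, which is near that background. *Nfkbia*, which encodes the inhibitor IkB alpha and is itself induced by NF-kB, was at 30.55, 31.71, 32.79 and 29.58 TPM in *Nup210*-/- libraries and at 29.85, 24.32, 31.15 and 23.04 TPM in *Nup210*+/+ libraries. The genotypes overlapped in TPM as deposited and not after scaling, with a log2 difference of 0.30 ± 0.08 (SE, limma adjusted p = 0.166, between 0.139 and 0.388 over the alternatives). *Nfkbib*, which encodes another inhibitor, gave 0.28 ± 0.12 (SE, limma adjusted p = 0.33). *Rel*, a subunit used mostly in immune cells, had the lowest estimate, −0.11 ± 0.14 (SE, limma adjusted p = 0.737).

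Of 19 target genes of NF-kB, 16 were tested and 0 were called by limma, with a median of 0.04. At an unadjusted p of 0.05, 2 were higher, *Nfkbia* and the adhesion molecule gene *Vcam1* (0.25 ± 0.09, limma adjusted p = 0.267), and 1 was lower, *Cd74*. The shares over all tested genes were 7.0% higher and 7.18% lower. *Cd74*, the invariant chain of MHC class II, had the highest level of the list, at 107 ± 4.95 TPM in *Nup210*-/- libraries and 154 ± 41.7 TPM in *Nup210*+/+ libraries (log2 difference −0.39 ± 0.13, limma adjusted p = 0.243). *Ccl5*, a chemokine of T cells and macrophages, had the lowest estimate (−0.47 ± 0.29, limma adjusted p = 0.487) at levels of at most 1.96 TPM. The leukocyte markers summed to 20.4 to 23.2 TPM in *Nup210*-/- libraries and 25.8 to 118 TPM in *Nup210*+/+ libraries (25.8 to 45.7 TPM without replicate 2), and their part in the level of *Cd74* was not tested.

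Of 10 muscle genes listed as downstream of Fn14 and TRAF6, 1 was called, and it was higher, beside 0.112% of all tested genes called. The list was drawn up with earlier results of these data known, so its calls and p-values are a description. *Mstn*, which encodes the growth inhibitor myostatin, was at 77.53, 76.05, 71.78 and 69.25 TPM in *Nup210*-/- libraries and at 59.35, 49.93, 57.43 and 46.47 TPM in *Nup210*+/+ libraries, without overlap. Its log2 difference of 0.56 ± 0.07 (SE, limma adjusted p = 0.049) passed the threshold in 6 of the 18 fits and in none of the 8 with 1 library left out. The atrophy ubiquitin ligase genes *Fbxo32* (atrogin-1) and *Trim63* (MuRF1) had estimates of 0.45 ± 0.15 and 0.32 ± 0.11 (SE, limma adjusted p = 0.224 and 0.235), with genotypes that overlapped. Together with *Mstn* they were the 3 genes of the list past an unadjusted p of 0.05, and 0 passed it in the lower direction. Over all tested genes 7.0% passed it as higher and 7.18% as lower. *Ankrd1*, a titin-binding stress gene, gave 0.43 ± 0.20 (SE, limma adjusted p = 0.361). *Ppargc1a*, the mitochondrial coactivator PGC-1 alpha, had the lowest estimate, −0.12 ± 0.16 (SE, limma adjusted p = 0.761), and *Sqstm1*, the autophagy receptor p62, had the highest level and the same mean of 309 TPM in both genotypes. Of the 10 genes, 7 had a positive and 3 a negative estimate, with a median of 0.09, where 51.3% of all tested genes were negative.

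**Figure D4:**
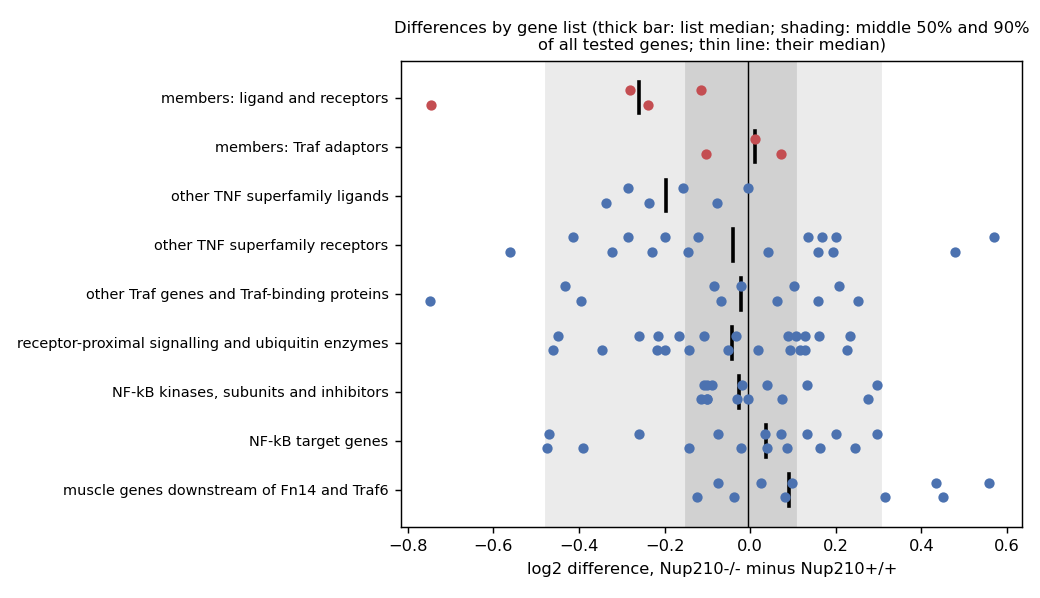
Log2 difference of *Nup210*-/- minus *Nup210*+/+ libraries (x axis) of each tested gene by list (rows), with thick bars for list medians and shading for the middle 50% and 90% of all tested genes around their median. The medians of the other lists lie between −0.20 and 0.09, and *Tnfrsf12a*, *Tifab*, *Tnfrsf13b*, *Tnfrsf19*, *Eda2r*, *Mstn*, *Fbxo32*, *Ankrd1* and *Trim63* lie outside the shading.

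Over these 7 lists together, 88 of 114 genes were tested, 1 was called higher and 0 lower by limma, and 14 passed an unadjusted p of 0.05, 10 higher and 4 lower, where 14.2% of all tested genes did. All of these lists were chosen with earlier results of these data known, so nothing is read from the counts.

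The other 6 genes were also compared with *Tnfrsf12a* library by library. Over the 8 libraries the Pearson correlation with *Tnfrsf12a*, on log2(scaled TPM + 1), was 0.66 for both *Tnfrsf1a* and *Tnfrsf1b*, 0.48 for *Traf3*, 0.46 for *Tnfsf12*, −0.14 for *Traf2* and −0.34 for *Traf6*. After the mean of each genotype was subtracted it was between −0.28 for *Traf2* and 0.26 for *Tnfsf12*. These are descriptions over 8 libraries that share their scaling and, without the subtraction, the difference between genotypes.

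Among 14222 other tested genes, the 5 with the profile most like that of *Tnfrsf12a* were *Cxcl16*, *Xirp1*, *Sertad4*, *Col6a1* and *Rnf115*, with correlations of 0.987, 0.972, 0.970, 0.966 and 0.965 over 8 libraries. *Cxcl16* encodes a chemokine and scavenger receptor and was at 1.87, 1.72, 1.33 and 1.73 TPM in *Nup210*-/- libraries and at 3.77, 2.72, 3.43 and 3.12 TPM in *Nup210*+/+ libraries. *Xirp1* encodes Xin, a repeat protein of muscle attachment and repair sites, and was at 66.53, 68.68, 68.49 and 61.57 TPM and at 148.38, 110.46, 120.71 and 133.44 TPM. Like *Tnfrsf12a*, both were lowest among the *Nup210*+/+ libraries in replicate 2 and did not overlap between genotypes. *Col6a1*, a collagen VI chain, was at 22.9 ± 1.64 and 34.0 ± 2.99 TPM, *Rnf115*, a ubiquitin ligase, at 69.3 ± 3.50 and 94.8 ± 7.45 TPM, and *Sertad4* at 1.58 ± 0.139 and 2.71 ± 0.194 TPM (SD, n = 4 each).

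Much of this likeness is the difference between genotypes itself. After the genotype means were subtracted, the correlation with *Tnfrsf12a* was 0.945 for *Cxcl16* and 0.909 for *Rnf115* and was 0.726 for *Sertad4*, 0.713 for *Xirp1* and 0.629 for *Col6a1*. By that measure the 5 most similar genes were others, namely *Klhl7* (0.979), *Atcay* (0.978), *Ccrl2* (0.974), *Mafk* (0.970) and *4732440D04Rik* (0.962). Both sets of 5 were picked as the highest of 14222 correlations over only 8 libraries. Very high values are then found through the picking itself, so no link to *Tnfrsf12a* is read from them. *Klhl7* encodes an adaptor of a cullin ubiquitin ligase, *Ccrl2* a chemokine-like receptor and *Mafk* a small Maf transcription factor. Their correlations over all 8 libraries were 0.602, −0.442, −0.574, 0.146 and 0.285. Exons of *Cxcl16*, *Sertad4*, *Atcay*, *Mafk* and *4732440D04Rik* overlap another gene on the opposite strand, and whether the counting used the strand is not stated, so their values are uncertain. The same holds for *Tnfsfm13*, *Trafd1*, *Traf5*, *Ube2v1*, *Cd74* and *Sqstm1* among the listed genes, whose exons overlap another gene on either strand. Exon overlap was looked up for the 7 genes, *Nup210* and 28 other named genes. It was not looked up for *Eda2r*, *Tnfrsf10b*, *Cd163*, *Tnf*, *Tank*, *Cyld*, *Nfkbib*, *Vcam1*, *Fbxo32*, *Trim63* and *Ankrd1*.

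**Figure D5:**
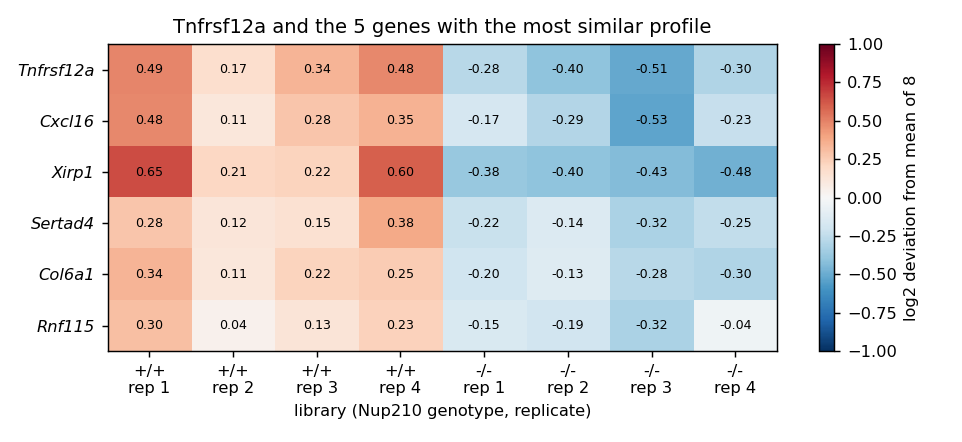
Deviation of log2(scaled TPM + 1) from the mean of 8 libraries (color and printed values) for *Tnfrsf12a* and the 5 genes most similar to it over all libraries. All 6 genes are above their mean in the *Nup210*+/+ and below it in the *Nup210*-/- libraries, and within *Nup210*+/+ *Tnfrsf12a* is nearest to its mean in replicate 2, at 0.17.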

How the data were processed

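Polyadenylated RNA was made by the authors into directional libraries and sequenced from a single end. The submitters' processing notes name cutadapt 2.3, STAR 2.7.0d and RSEM 1.3.1 with mm10. The deposited values are TPM per gene and library, with no pooling of replicates. Read depth is unknown from TPM, so precision rests on the spread between mice, and whether RSEM used the strand is not stated. Sample labels gave the genotypes and replicate numbers.

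TPM were scaled by the median of ratios over 15225 genes (factors 0.936 to 1.12). Where the mean reached 0.5 TPM, log2(scaled TPM + 1) was tested over 14229 genes with limma 3.58.1 in R 4.3.3 (intensity trend, genotype as the only term, Benjamini-Hochberg over all tested genes). Tested on simulated data for this comparison, the fit recovered 29.2%, 79.4% and 95.5% of 200 genes changed by a log2 of 0.5, 1 and 2. Exact tests went through every labeling or sign in Python 3.11.15, and matplotlib 3.10.9 drew the figures. Coordinates and exon overlaps are from GENCODE M21 on GRCm38, and promoters from RefSeq (GRCm38.p6).

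The members and lists were chosen with earlier results of these data known. Named were the members, listed genes past an adjusted p of 0.05, the highest level and the highest and lowest difference in each list, and the 5 genes most like *Tnfrsf12a* by each measure. *Eda2r*, *Tnfrsf10b*, *Cd163*, *Tnf*, *Tank*, *Cyld*, *Nfkbib*, *Vcam1*, *Fbxo32*, *Trim63* and *Ankrd1* were named after their values were seen. The alternatives varied the pseudocount (0.1, 0.5), the filter (every gene above 0 TPM, a mean of 1), the scaling (none, upper quartile), the trend, library weights and a replicate block, and left out each library.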

Additional observations from a re-analysis of the deposited data

Results flagged for a closer look

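Of 94 groups of 4 libraries examined for 1 library far from the other 3, 6 held such a library, where chance gives about 1 in 20, or 4.7 groups. None of the 7 genes was among them, and 4 of the 6 were *Nup210*+/+ replicate 2. In that library *Tifab* reached 3.89 TPM, where the other *Nup210*+/+ libraries held 0.53 to 0.81 TPM, with a gap of 0.917 of the group's range, and *Ccrl2* was at 3.82 TPM against 5.18 to 5.38 TPM (0.872). In the same library the summed granulocyte precursor markers were at 382 TPM (0.995) and the markers of dividing cells at 54.4 TPM against 2.42 to 2.94 TPM (0.990). *Rel* reached 2.93 TPM in *Nup210*+/+ replicate 1, above the 2.03 to 2.11 TPM of the others (0.911). *Trafd1* had 26.91 TPM in *Nup210*-/- replicate 4, below the 32.76 to 33.95 TPM of the other *Nup210*-/- libraries (0.831).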

How the results depend on the processing

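All 119 alternative values of the 7 genes moved by less than the spread between replicates, and all 54 of the order of levels kept their side of the threshold. The number of genes called by limma did not: 16 in the main analysis, 27 with a mean TPM of at least 1, 84 with library weights, 1 with every gene above 0 TPM and 0 without the trend or with the replicate block, and 0 to 10 with 1 library left out, while 1575 to 2681 genes passed an unadjusted p of 0.05 in those last fits. The weights called 2 other receptors. In the muscle list the call of *Mstn* was lost, leaving 0, with every gene above 0 TPM, TPM as deposited, no trend, the replicate block and each omitted library. The call of *Tnfrsf12a* was lost with every gene above 0 TPM, no trend, the replicate block and each omitted library except *Nup210*+/+ replicate 2. The labels name no pairing of the mice by replicate number, and same-numbered libraries had correlations of deviations from −0.03 to 0.09. Such values cannot exclude a pairing, and the block is given only as an alternative. The cause of these changes was not tested. Signs turned for *Tnfsf13b* (0.026 and 0.001 with pseudocounts of 0.1 and 0.5, from −0.10 to 0.106 with a library left out), *Ube2v1* (−0.002 as deposited), *Ppargc1a* (−0.218 to 0.024 with a library left out), *Mafk* (−0.051 as deposited, −0.019 with weights, −0.025 to 0.105 with a library left out) and *4732440D04Rik* (−0.072 to 0.076 with a library left out). Depth is unknown, so genes listed near 0 TPM, most ligands among them, could not be compared.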
